A study of Mus musculus with 9 samples.

Results

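The 10 genes described here belong to the BCL2 family, whose proteins decide at the mitochondrial outer membrane whether a stressed cell survives or dies. They are Bcl2, Bcl2l1, Mcl1, Bcl2a1b, Bcl2a1d, Bax, Bak1, Bid, Bcl2l11 and Pmaip1, taken by symbol from a table of 56263 genes measured in mouse lung. All 10 were found, each on 1 row, and all 10 passed the minimum level of 1 TPM in at least 3 of 9 libraries that 16080 genes reached. Levels are in TPM, a share of the transcripts of a library with gene length taken into account, so that they can be set side by side between genes. Between libraries they also depend on the composition of each library, which is given further on.

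The lungs came from wild-type male BALB/c mice, an inbred laboratory strain, aged 6 to 8 weeks at purchase, in an experiment of 42 days. The Control group (libraries C1 to C3) was not exposed and received vehicle by gavage. Mice of the Model group (M1 to M3) breathed cigarette smoke and were given lipopolysaccharide (20 µg), a toxin from the wall of Gram-negative bacteria, into the trachea on days 1 and 14, also with vehicle by gavage, which the study uses as a mouse model of chronic obstructive pulmonary disease (COPD). The QJHTD group (Q1 to Q3) had the same exposure and received Qing-Jin-Hua-Tan decoction, a multi-herb preparation, by gavage at the highest of the doses the study tried. Each group holds 3 libraries, and the labels do not say that each is a separate mouse, so that a p-value here measures only the spread between these libraries.

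BCL2 proteins fall into 3 roles. Survival members (the products of Bcl2, Bcl2l1, Mcl1 and the Bcl2a1 copies) hold their partners in check. The effectors BAX and BAK open pores in the mitochondrial outer membrane, which releases cytochrome c and starts the caspases that dismantle the cell. BH3-only members (BID, the BIM of Bcl2l11 and the NOXA of Pmaip1) sense stress and either neutralise the survival members or switch on the effectors. In lung these genes matter both to the resident epithelium and endothelium and to infiltrating leukocytes, since MCL1 and A1, the product of Bcl2a1, are survival factors of neutrophils and other leukocytes.

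Of the survival genes, Bcl2a1 is carried by the mouse as several near-identical copies on chromosome 9, and their sequences limit how far one copy can be read apart from another. Bcl2a1b lies at chr9:89199209-89207827 on the plus strand and Bcl2a1d at chr9:88723285-88731914 on the minus strand (GRCm38, GENCODE M21). Another full copy, Bcl2a1a, lies at chr9:88956900-88962419 and a shorter one, Bcl2a1c, at chr9:114330135-114330578, both on the plus strand. The first 120 coding bases of the full copies are shown here because they hold 7 of the 12 positions at which the coding sequences differ, and capitals mark those positions.
Bcl2a1b: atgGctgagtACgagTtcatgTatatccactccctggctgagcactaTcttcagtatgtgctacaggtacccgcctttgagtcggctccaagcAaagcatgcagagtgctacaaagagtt
Bcl2a1a: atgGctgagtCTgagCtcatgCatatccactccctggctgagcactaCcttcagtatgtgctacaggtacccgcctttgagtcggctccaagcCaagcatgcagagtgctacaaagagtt
Bcl2a1d: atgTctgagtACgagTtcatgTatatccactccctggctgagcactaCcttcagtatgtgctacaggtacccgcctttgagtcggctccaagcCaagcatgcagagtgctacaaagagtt
Each coding sequence is 516 bases long. The coding sequences of Bcl2a1b and Bcl2a1d were 98.8% identical (6 differing bases), those of Bcl2a1a and Bcl2a1d 98.6% and those of Bcl2a1a and Bcl2a1b 97.9%. Of all stretches of 100 bases along the annotated transcripts, 56.8% of those of Bcl2a1b, 54.7% of those of Bcl2a1d and 43.5% of those of Bcl2a1a occur unchanged in another gene, whereas every such stretch of Bcl2a1c was found in Bcl2a1c alone. Gm29094, a predicted gene on the same strand, covers 49.1% of the exonic bases of Bcl2a1b (401 of 817) and was itself listed at 4.64 TPM or less in the libraries. Reads from shared stretches are divided among the copies by the counting program, so the value of a single copy is uncertain and the sum over the copies is given beside it.

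The promoters of these copies, from 250 bases before to 50 after the transcription start as RefSeq places it (GRCm38.p6), are as alike as the coding sequences, with 98.8% identity between Bcl2a1b and Bcl2a1d over 250 aligned bases. The pair is shown because both genes moved in the same direction between the groups, as given further on. Capitals mark GAGGAA, the letters of the PU box that the myeloid and B cell factor PU.1 is known to bind, or its complement TTCCTC on the other strand. The Bcl2a1b window is chr9:89199023-89199322 on the plus strand and the Bcl2a1d window chr9:88731801-88732100 on the minus strand.
Bcl2a1b: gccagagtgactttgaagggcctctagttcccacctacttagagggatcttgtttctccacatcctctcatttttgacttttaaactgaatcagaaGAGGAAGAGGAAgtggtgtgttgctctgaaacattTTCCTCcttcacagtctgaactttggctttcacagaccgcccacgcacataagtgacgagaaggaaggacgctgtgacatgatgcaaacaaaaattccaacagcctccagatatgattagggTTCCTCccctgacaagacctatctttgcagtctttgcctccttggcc
Bcl2a1d: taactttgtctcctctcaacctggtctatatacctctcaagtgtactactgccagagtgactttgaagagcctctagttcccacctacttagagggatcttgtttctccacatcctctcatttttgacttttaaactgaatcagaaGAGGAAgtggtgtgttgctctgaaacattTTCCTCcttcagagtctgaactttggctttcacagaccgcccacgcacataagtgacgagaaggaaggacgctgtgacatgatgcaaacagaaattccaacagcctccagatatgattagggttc
GAGGAA occurred 4 times in the window of Bcl2a1b, where a pair stands end to end without overlap, 2 times in that of Bcl2a1d, 3 times in that of Bcl2a1a and 4 times in that of Bcl2a1c. The Bcl2a1b window reaches further downstream along the shared sequence. Those of Bcl2a1d and Bcl2a1a end inside the stretch that holds its last match, so its count is not like for like with theirs. Of 32851 mouse promoter windows of the same length, 28.3% hold GAGGAA at least once on either strand. It also occurred once in the windows of Bcl2, Bak1 and Bid, and in none of those of Bcl2l1, Mcl1, Bax or Bcl2l11. TATAAA, present in 13.6% of windows, was in none of the windows of the 9 genes that the promoter table covers. The NF-kB consensus, present in 4.51% of windows, was found once, upstream of one of 3 start sites of Bcl2l1. These are matches of letters and say nothing of binding in these lungs.

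The level of the family in the lung was set by few genes. In Control, Mcl1 led with a mean of 120 TPM, followed by Bax at 81.0 and Bcl2l1 at 51.9 TPM, and the libraries of these 3 did not overlap with one another. Bak1 (13.7 TPM), Bcl2a1d (11.5 TPM) and Bcl2a1b (10.5 TPM) came next, where Bak1 overlapped with Bcl2a1d and Bcl2a1d with Bcl2a1b. Bcl2l11 (6.32 TPM), Pmaip1 (4.77 TPM), Bcl2 (3.99 TPM) and Bid (3.23 TPM) were lowest, with Pmaip1 and Bcl2 overlapping. In Model, Mcl1 still led at 150 TPM, Bcl2a1b was second at 71.1 TPM above Bax at 62.5 TPM, and Bcl2 was last at 2.04 TPM. The 10 genes together took 0.0287% to 0.0324% of all TPM in Control and 0.0418% to 0.0458% in Model. Between the 3 libraries of a group, the coefficient of variation had a median over the 10 genes of 10.8% in Control, 10.7% in Model and 6.66% in QJHTD, and Bcl2 varied most in each group (17.5% to 22.4%).

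**Figure D1:**
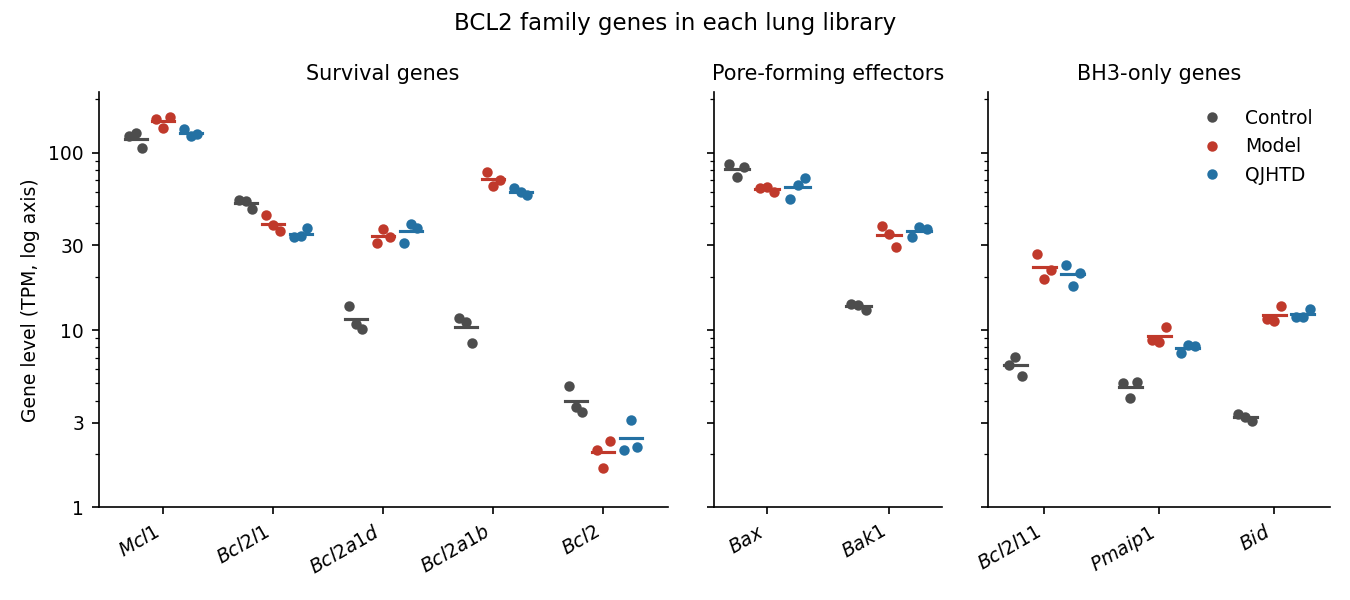
Level of each of the 10 BCL2 family genes in TPM on a log axis, with 1 point per library, a bar at the group mean, and the genes grouped by role (Control grey, Model red, QJHTD blue). Bcl2a1b stood at 8.50 to 11.7 TPM in Control and at 57.8 to 77.5 TPM in the exposed libraries, while Bcl2 was below 5 TPM in all 9.

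The composition of the libraries differed between Control and the exposed groups in a way that bears on every TPM value. Antibody and T-cell receptor segments (665 genes) took 0.296% to 0.605% of all TPM in Control, 36.2% to 42.9% in Model and 36.8% to 43.7% in QJHTD. Scgb1a1, the club cell secretoglobin, took 21.3% to 23.8% in Control and 1.18% to 3.16% in Model. Since TPM of a library sum to a fixed total, a gene's TPM move with these shares, and the median log2 fold change of the 16080 genes was -0.47 in Model against Control. The split of genes called in that comparison was 2674 higher and 9079 lower on TPM as deposited (22.8% higher), 4976 higher and 4753 lower after median-ratio rescaling (51.1% higher) and 5569 higher and 3964 lower after removal of segment, hemoglobin and mitochondrial genes (58.4% higher). In QJHTD against Control the same 3 scalings gave 24.1%, 51.8% and 62.3% higher. Results for Model against Control and QJHTD against Control are therefore given with the scaling where it turned a direction or ended a call, and the 3 genes that fell also with their position against the median of all genes.

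The comparison of Model with Control asks how smoke and lipopolysaccharide changed these genes. Against Control, 7 of the 10 genes rose (Bcl2a1b, Bcl2l11, Bid, Bcl2a1d, Bak1, Pmaip1 and Mcl1) and 3 fell (Bcl2, Bcl2l1 and Bax) at an adjusted p under 0.05 of limma's moderated test on log2(TPM + 1), adjusted by the Benjamini-Hochberg method over all genes tested. Of all genes tested, 73.1% were called in this comparison, 16.6% as higher and 56.5% as lower. The median log2 fold change of the 10 genes was 1.05. For each of the 10 the 3 Model libraries did not overlap with the 3 Control libraries, which held for 75.8% of all genes tested. With an unadjusted p under 0.05 and a log2 fold change of at least 1 in size, the thresholds of the study, 5 of 10 passed, where 31.4% of all genes did. Fold changes on this scale understate the change of low genes. Since whole lung was sequenced, fewer cells of a type and less RNA per cell cannot be told apart. The 7 rises include survival genes, an effector and all 3 BH3-only genes among the 10, and the 3 falls include survival genes and an effector.

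Bcl2a1b, an inducible survival gene of leukocytes, had the largest fold change of the 10. Its level was 11.7, 11.2 and 8.50 TPM in C1 to C3 and 77.5, 65.3 and 70.5 TPM in M1 to M3. The lowest Model library was thus far above the highest Control library, and the group means differed 6.8-fold (log2 fold change 2.66 ± 0.12 SE, adjusted p = 3.7e-07 by limma). That fold change ranked 475 of 16080 from the top.

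Bcl2a1d, the other copy, was at 13.7, 10.8 and 10.2 TPM in Control and at 31.0, 37.2 and 33.7 TPM in Model. Its groups did not overlap either, with a log2 fold change of 1.49 ± 0.14 SE (adjusted p = 2.0e-05). The summed level of the 4 copies was 37.2, 31.6 and 31.1 TPM in Control and 148, 145 and 153 TPM in Model. This sum does not depend on how shared reads were divided among the copies, but it does on their division with Gm29094, which is not in it. The sum rose by 2.13 ± 0.09 SE on the log2 scale (adjusted p = 2.3e-07). Bcl2a1b made up 27.3% to 35.4% of the sum in Control and 45.1% to 52.4% in Model, and the share of Bcl2a1d went from 32.6% to 36.8% down to 20.9% to 25.7%. These shares rest on the division of reads among near-identical copies, and Gm29094, which overlaps Bcl2a1b, was at 0 to 1.23 TPM in Control and 3.37 to 4.64 TPM in Model.

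**Figure D2:**
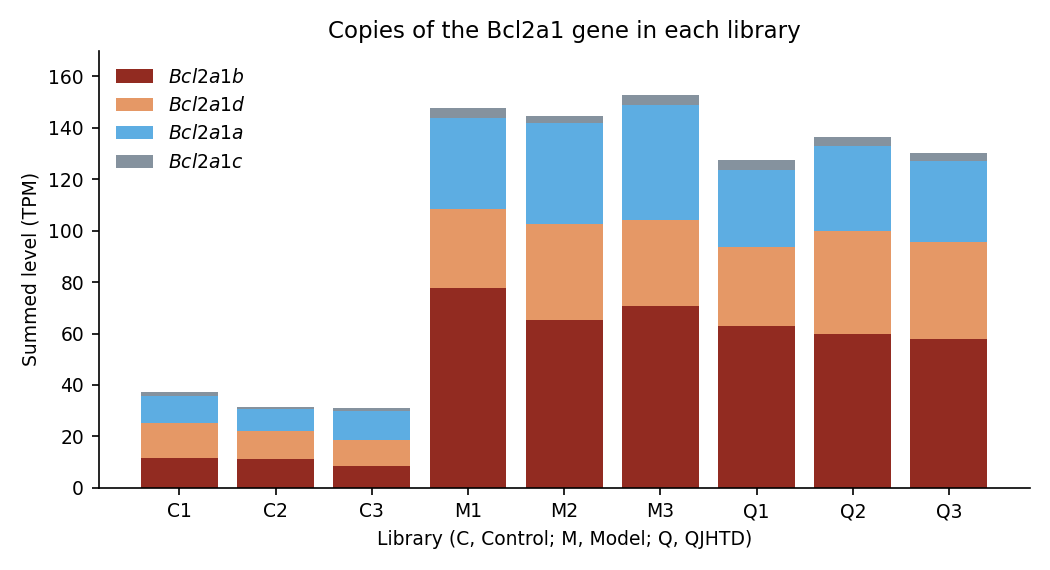
Level of the 4 copies of Bcl2a1 in each library in TPM, stacked from 0, with C for Control, M for Model and Q for QJHTD. The stack reached 31.1 to 37.2 TPM in Control, 145 to 153 TPM in Model and 128 to 137 TPM in QJHTD, and Bcl2a1c was the smallest part in each library.

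Mcl1 (chr3:95658788-95663176, plus strand), a short-lived survival protein that neutrophils in particular depend on, was at 125, 129 and 106 TPM in Control and at 154, 137 and 159 TPM in Model. The lowest Model library lay just above the highest Control library. Its rise was small (log2 fold change 0.32 ± 0.10 SE, adjusted p = 0.0161), and the adjusted p became 0.0609 without C3 and 0.0528 without M3.

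Bcl2 and Bcl2l1, whose product is BCL-XL, are survival genes of many resident and lymphoid cells and were lower in Model. Bcl2 (chr1:106538178-106714274, minus strand) was at 4.86, 3.66 and 3.45 TPM in Control and at 2.10, 1.66 and 2.37 TPM in Model, so that all 3 Model libraries lay below the lowest Control library. It fell by 0.71 on the log2 scale (0.17 SE, adjusted p = 0.00415). Bcl2l1 (chr2:152780668-152831728, minus strand) was at 53.9, 53.5 and 48.3 TPM in Control and at 44.6, 39.0 and 36.0 TPM in Model. Its groups were also apart, and it fell by 0.38 on the log2 scale (0.10 SE, adjusted p = 0.00748). Against the median of all genes these changes were -0.24 for Bcl2 and 0.10 for Bcl2l1.

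Of the effectors, Bax and Bak1 moved in opposite directions in TPM. Bax (chr7:45461697-45466898, minus strand) was at 86.3, 73.2 and 83.4 TPM in Control and at 63.3, 63.8 and 60.3 TPM in Model. The Model libraries lay within a narrow band below Control, and Bax fell by 0.37 on the log2 scale (0.11 SE, adjusted p = 0.0153), which is 0.11 above the median of all genes. Without C1 its adjusted p was 0.0558. Bak1 (chr17:27019810-27029009, minus strand) was at 14.1, 13.9 and 13.0 TPM in Control and at 38.6, 34.8 and 29.4 TPM in Model. It rose 2.51-fold in mean TPM (log2 fold change 1.26 ± 0.11 SE, adjusted p = 1.3e-05). Ggnbp1 on the opposite strand covers 25.5% of the exonic bases of Bak1 and moved the other way, from 4.10 to 7.28 TPM in Control down to 1.06 to 2.71 TPM in Model. The Bak1 to Bax ratio was 0.156 to 0.190 in Control and 0.488 to 0.610 in Model, a ratio that multiplying a library by a single factor leaves as it is. The summed level of both effectors was 94.5 ± 6.66 TPM (SD, n = 3) in Control and 96.8 ± 6.35 TPM in Model, with the groups overlapping. With their relative Bok added, the 3 came to 114 ± 9.04 TPM in Control and 104 ± 6.84 TPM in Model, also overlapping. Unlike the ratio, these sums move with the scaling of the libraries.

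The 3 BH3-only genes among the 10 rose, whereas others such as Bbc3 and Bik, given further on, fell. Bcl2l11 (chr2:128126038-128162547, plus strand), whose protein BIM binds all survival members, was at 6.38, 7.09 and 5.50 TPM in Control and at 26.9, 19.3 and 21.8 TPM in Model. The groups were far apart, and the mean rose 3.58-fold (log2 fold change 1.69 ± 0.15 SE, adjusted p = 1.6e-05). Bid (chr6:120891930-120916853, minus strand), which caspase-8 cleaves to connect death receptors to mitochondria, was at 3.36, 3.23 and 3.09 TPM in Control and at 11.5, 11.3 and 13.7 TPM in Model. Its mean rose 3.77-fold (log2 fold change 1.63 ± 0.10 SE, adjusted p = 2.1e-06), with little spread in Control. Bcl2l13, on the opposite strand, covers 17.7% of the exonic bases of Bid and had 3.72 to 7.51 TPM in Control and 7.67 to 9.32 TPM in Model. Pmaip1 (chr18:66458533-66465565, plus strand), whose protein NOXA binds MCL1 and A1, was at 5.06, 4.13 and 5.11 TPM in Control and at 8.80, 8.61 and 10.4 TPM in Model. Here too the groups did not overlap, and Pmaip1 rose by 0.83 ± 0.11 SE on the log2 scale (adjusted p = 2.0e-04). Whether reads were counted by strand is not given in the sources used here, so overlapping genes on opposite strands may share reads.

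**Figure D3:**
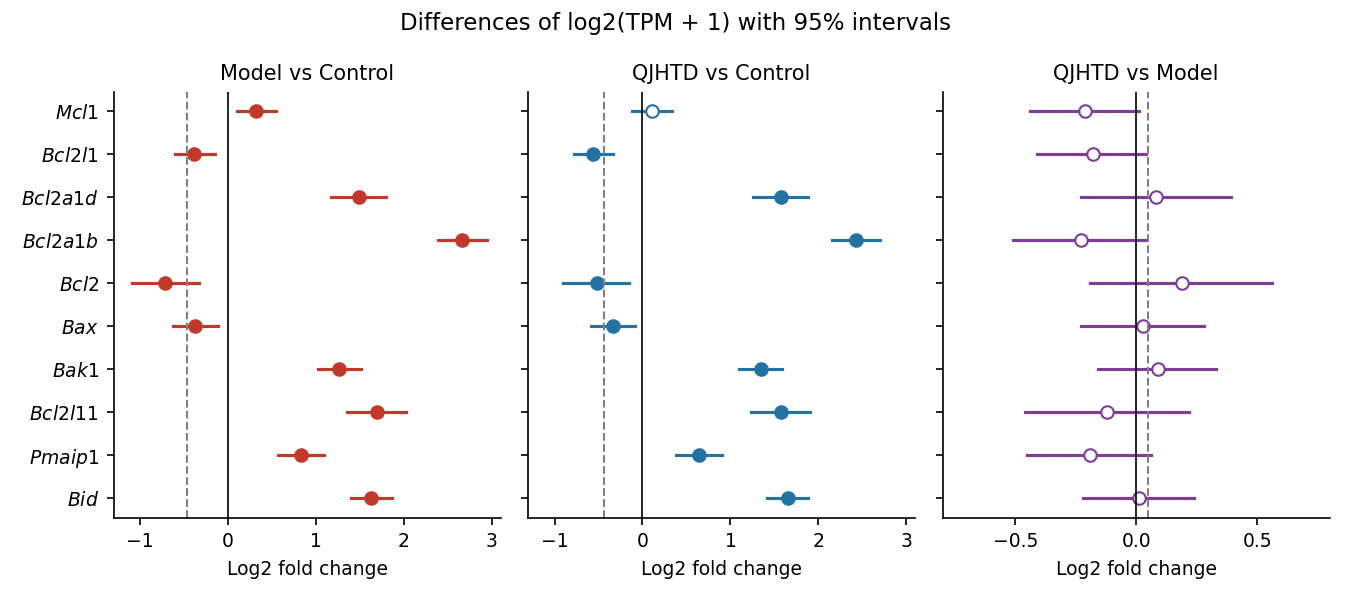
Log2 fold change of each of the 10 genes (difference of log2(TPM + 1)) with its 95% interval from limma, for Model against Control, QJHTD against Control and QJHTD against Model, where filled points passed an adjusted p of 0.05 and the dashed line is the median of all genes tested. All 10 points are filled in the first panel, 9 in the second (Mcl1 is open) and 0 in the third, whose axis is narrower.

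The scaling of the libraries mattered for the 3 falls and not for the direction of the 7 rises. Over quantile normalization, median-ratio rescaling, TPM without segment, hemoglobin and mitochondrial genes, and the last of these also without Scgb1a1, the 7 rising genes stayed called and higher. Bcl2a1b ranged from 2.98 to 3.31 on the log2 scale over these 4 alternatives and Mcl1 from 0.32 to 0.97. Bax turned to 0.17 (adjusted p = 0.165) after median-ratio rescaling and to 0.27 (adjusted p = 0.0267) without segment, hemoglobin and mitochondrial genes, and it was at -0.16 and -0.08 in the other 2, neither of them called. Bcl2l1 likewise turned to 0.16 (adjusted p = 0.196) and 0.26 (adjusted p = 0.0379) and was at -0.10 in both others. Bcl2 stayed below 0 in each, between -0.25 and -0.55, and lost its call in median-ratio rescaling (adjusted p = 0.0738) and without segment, hemoglobin and mitochondrial genes (adjusted p = 0.219). The fall of Bax and of Bcl2l1 is therefore a fall in share of the library's TPM, and its direction relative to other genes turns with the scaling.

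**Figure D4:**
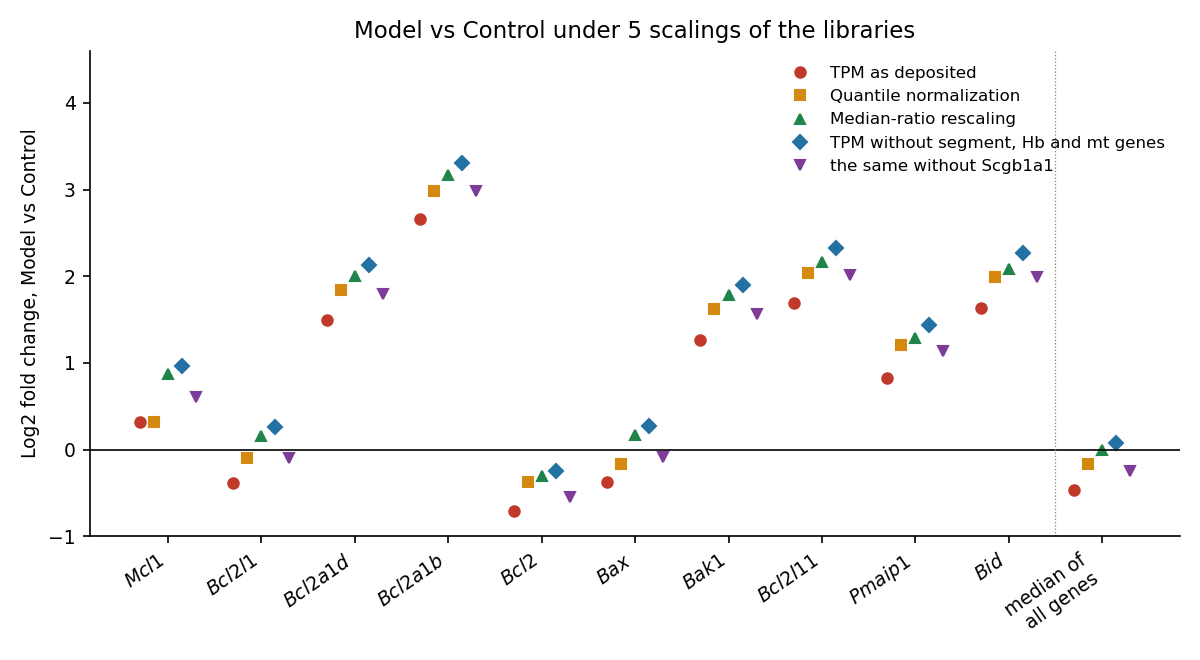
Log2 fold change of each gene, and of the median of all genes tested, in Model against Control under 5 scalings of the libraries (TPM as deposited, quantile normalization, median-ratio rescaling, TPM without segment, hemoglobin (Hb) and mitochondrial (mt) genes, and the same also without Scgb1a1). The 7 rising genes are above 0 with each marker, while Bax and Bcl2l1 lie on both sides of 0.

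Ratios within a library, which multiplying that library by a single factor does not alter, are given as a description without a test. The Bax to Bcl2 ratio was 17.8 to 24.2 in C1 to C3 and 30.1, 38.4 and 25.4 in M1 to M3. Each Model library was above each Control library, M3 only narrowly. The Bcl2l11 to Bcl2 ratio was 1.31 to 1.94 in Control and 9.21 to 12.8 in Model, a wider gap. The Mcl1 to Bcl2 ratio was 25.7 to 35.1 in Control and 67.3 to 82.6 in Model. In summed TPM, the 5 survival genes among the 10 went from 198 ± 18.2 (SD, n = 3) in Control to 297 ± 15.1 in Model, and the 3 BH3-only genes among them from 14.3 ± 0.557 to 44.1 ± 4.29. The latter sum does not stand for the role, since with Bbc3, Bad, Bik, Bmf and Hrk added the 8 BH3-only genes came to 104 ± 2.49 TPM in Control and 103 ± 9.84 TPM in Model. With 4 other survival genes added, the 9 came to 231 ± 18.5 and 349 ± 17 TPM. Unlike the ratios, these sums move with the scaling of the libraries and are given on TPM as deposited alone.

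The comparison of QJHTD with Model asks whether the decoction changed these genes in exposed mice. None of the 10 genes passed the test, at an adjusted p of 0.747 or more by limma, and 0 of 10 had an unadjusted p under 0.05. Of all genes tested, 0.0124% (2 genes) were called in this comparison and 6.84% had an unadjusted p under 0.05. The largest of the 10 differences was 0.23 on the log2 scale in size, and 5 estimates were above 0 and 5 below. A p that misses the threshold does not show equal levels, and the 95% intervals give the range of differences compatible with these libraries.

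In Mcl1, Bcl2a1b and Pmaip1 all 3 QJHTD libraries lay below all 3 Model libraries. That was the case for 3.81% of all genes tested, and no gene of the 10 was apart in the other direction, as 8.44% of all genes were. Mcl1 was at 136, 124 and 128 TPM in Q1 to Q3, below the 137 TPM of the lowest Model library, with a difference of -0.21 on the log2 scale (95% interval -0.44 to 0.01, unadjusted p = 0.0605, adjusted p = 0.747). Bcl2a1b was at 63.0, 60.0 and 57.8 TPM, a difference of -0.23 (95% interval -0.51 to 0.04, adjusted p = 0.762). The gap between its groups was narrow, since the lowest Model library held 65.3 TPM. Pmaip1 was at 7.47, 8.24 and 8.17 TPM, a difference of -0.19 (95% interval -0.45 to 0.06, adjusted p = 0.788). The sum of the Bcl2a1 copies was 128, 137 and 130 TPM in QJHTD, also below each Model library, with a difference of -0.17 (95% interval -0.37 to 0.02, adjusted p = 0.761). Gm29094, which shares sequence with the copies and is not in the sum, was at 0 to 1.68 TPM in QJHTD and 3.37 to 4.64 TPM in Model.

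For the other 7 genes the QJHTD and Model libraries overlapped. Bcl2a1d was at 30.8, 39.8 and 37.8 TPM in Q1 to Q3, around its Model levels (difference 0.08, 95% interval -0.23 to 0.39). Bcl2 was at 2.11, 3.11 and 2.20 TPM, where Q2 was higher than each Model library and the others were within their range (difference 0.19, 95% interval -0.19 to 0.56). Bcl2l1 was at 33.4, 33.8 and 37.6 TPM, with Q1 and Q2 below the lowest Model library (difference -0.18, 95% interval -0.41 to 0.04). These 3 survival genes thus showed no common direction. Bax was at 54.7, 65.4 and 72.2 TPM, below Model in Q1 and above it in Q2 and Q3 (difference 0.03, 95% interval -0.23 to 0.28). Bak1 was at 33.5, 38.1 and 37.3 TPM, inside the Model range (difference 0.09, 95% interval -0.16 to 0.33). Bid, at 11.8, 11.8 and 13.1 TPM, differed least (0.01, 95% interval -0.22 to 0.24). Bcl2l11 was at 23.4, 17.8 and 21.1 TPM (difference -0.12, 95% interval -0.46 to 0.22), with Q2 below each Model library. The Bax to Bcl2 ratio was 26.6 ± 5.93 (SD, n = 3) in QJHTD and 31.3 ± 6.58 in Model, with overlapping libraries.

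QJHTD and Control were compared to see which genes still differed from unexposed lungs under the decoction. Against Control, 9 of the 10 genes differed, 6 higher and 3 lower, where 70.7% of all genes tested were called, 17% as higher and 53.7% as lower. For the same 9 genes the libraries did not overlap, which held for 74.8% of all genes, and 5 of 10 had an unadjusted p under 0.05 with a log2 fold change of at least 1 in size, where 30% of all genes did. Model and QJHTD were set against the same Control libraries, so these values are not independent of those for Model. Bcl2a1b had a log2 fold change of 2.43 ± 0.12 SE (adjusted p = 7.5e-07), Bid of 1.65 ± 0.10 SE, Bcl2a1d and Bcl2l11 of 1.57 each, Bak1 of 1.35 and Pmaip1 of 0.64 (adjusted p = 9.5e-04). Mcl1 was the gene not called, at 0.11 (95% interval -0.12 to 0.34, adjusted p = 0.348), with Q2 and Q3 inside the Control range. It was called as higher in 3 of the 4 other scalings, at 0.61, 0.77 and 0.40. Bcl2l1, Bcl2 and Bax were at -0.56, -0.52 and -0.34 on the log2 scale on TPM as deposited. Bcl2 was called in none of the 4 other scalings, where it lay between -0.34 and -0.03. Bax was not called as lower in any of them and was called as higher, at 0.31 (adjusted p = 0.0144), without segment, hemoglobin and mitochondrial genes, the scaling in which Bcl2l1 was at 0.09 and not called. Bcl2l1 stayed called as lower after quantile normalization and in the scaling that also leaves out Scgb1a1 (-0.28 in both). Leaving out Q1 ended the calls of Bcl2 (adjusted p = 0.0673) and Bax (adjusted p = 0.0728), as leaving out C1 did (0.0743 and 0.0777), and the same held for Bcl2 without Q3 (0.0619) and for Bax without C3 (0.0648).

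The other genes of the family changed in both directions between Model and Control. Of 16 further BCL2 family genes 14 were tested, of which 3 rose, 7 fell and 4 did not pass, with a median log2 fold change of -0.36. Bcl2l10 and Hrk were at or near 0 TPM in all libraries and were not tested. The largest rise was that of Bcl2l15, a family gene of less settled role, which was at 0, 0.08 and 0.28 TPM in Control and at 7.90, 8.91 and 5.65 TPM in Model (log2 fold change 2.91, adjusted p = 1.2e-06). Bcl2l15 was thus nearly undetected in Control and clearly present in all exposed libraries. It reached the minimum of 1 TPM only in the exposed libraries, where it was high, so its test is no separate evidence beside these levels. Bcl2a1a rose by 1.88 and Bcl2a1c by 1.01 on the log2 scale. Bbc3, which encodes the BH3-only protein PUMA, fell by 1.07 (10.8 to 14.1 TPM in Control, 4.78 to 5.46 TPM in Model, adjusted p = 5.2e-05). The BH3-only gene Bik also fell, by 1.47. Bmf, another BH3-only gene, did not pass the test on TPM as deposited (0.12, adjusted p = 0.497), was called higher in 3 of the 4 other scalings (0.52 to 0.74) and was at 0.40 (adjusted p = 0.0505) in the one that also leaves out Scgb1a1. Bcl2l2, which encodes the survival protein BCL-W, fell by 1.33 (adjusted p = 6.8e-05), and Bok, a relative of Bax and Bak1, fell by 1.34. The rises of Bcl2l15 and the Bcl2a1 copies and the falls of Bbc3, Bcl2l2, Bik and Bok kept their direction and call in the 4 other scalings, in which the list counted 5 or 6 rises and 4 to 6 falls.

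The further genes of the pathway are given by list. Since the balance of rises and falls within a list moved with the scaling, the counts on TPM as deposited are given with their range over the 4 other scalings. Of 8 genes of the apoptosome and its caspases, 3 fell, against 1 to 2 in the other scalings, where 3 to 5 rose. Casp6, an executioner caspase, fell by 1.04 on the log2 scale, from 30.3 to 37.6 TPM in Control to 14.1 to 16.8 TPM in Model (adjusted p = 4.3e-05). Cycs, which encodes cytochrome c, and Casp2 fell by 0.55 and 0.64. Cycs lost its call in all 4 other scalings and turned to 0.07 without segment, hemoglobin and mitochondrial genes. Casp2 stayed called only in the scaling that also leaves out Scgb1a1 (-0.39, adjusted p = 0.0377). Casp6 was called in the same direction in each scaling.

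Among 10 tested inhibitors of apoptosis and their antagonists, 3 rose and 3 fell, against 4 to 8 rises and 2 falls in the other scalings. Birc5 (survivin), which is also a gene of dividing cells, rose by 2.63 on the log2 scale, Naip2, a sensor of bacterial proteins, by 1.88 and Birc3 (cIAP2), an NF-kB target gene, by 1.54. Birc3 was at 14.3 to 18.1 TPM in Control and at 47.1 to 54.0 TPM in Model, and its adjusted p was 4.0e-06. Xiap, the direct inhibitor of caspases, fell by 0.97, from 29.9 to 36.5 TPM in Control to 14.9 to 17.9 TPM in Model (adjusted p = 4.0e-05). These 4 calls held in each of the other scalings.

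Of 8 tested death receptor genes 2 rose and 4 fell, against 3 to 5 rises and 1 to 2 falls in the other scalings. The death receptor gene Fas rose by 0.76 and the adaptor kinase gene Ripk1 by 0.60, while Tnfsf10, which encodes the ligand TRAIL, fell by 1.30 and its receptor gene Tnfrsf10b by 0.66. The call of Tnfrsf10b was lost without segment, hemoglobin and mitochondrial genes (adjusted p = 0.136). In the p53 axis 1 of 7 genes rose and 4 fell, against 2 to 3 rises and 0 to 2 falls. Trp53inp1, a stress target of p53, rose by 1.98 (16.2 to 20.9 TPM in Control, 70.0 to 85.6 TPM in Model, adjusted p = 2.0e-06). The p53 target Cdkn1a fell by 0.60, Mdm4, a restrainer of p53, by 1.06 and Aen, an exonuclease gene under p53, by 0.46. Each of these 3 lost its call in at least 1 other scaling, Aen in all 4. Aen turned to 0.05 after median-ratio rescaling. Without segment, hemoglobin and mitochondrial genes Aen turned to 0.14 and Cdkn1a to 0.03, and none of these values was called. Trp53 itself did not pass the test on TPM as deposited (0.05, adjusted p = 0.672), and it was called higher in all 4 other scalings, between 0.34 and 0.68.

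Genes of the mitochondrial channel and outer membrane were mostly lower on TPM as deposited, with 6 of 8 falling and 1 rising, against 2 to 4 falls and 1 to 4 rises in the other scalings. Vdac1, Vdac2 and Vdac3 encode voltage-dependent channels of the outer membrane, of which VDAC2 is known to hold BAK, and they fell by 0.82, 0.39 and 0.85. Slc25a4, an ADP/ATP carrier gene, fell by 1.11 (adjusted p = 1.1e-04). Vdac2 turned to 0.25 (adjusted p = 0.0128) without segment, hemoglobin and mitochondrial genes, the scaling in which Vdac3 lost its call (-0.21, adjusted p = 0.0598). Over the apoptosis map of KEGG as the table annotates it, 136 genes were tested, of which 39 rose, 58 fell and 39 did not pass. The share called on the map was 71.3%, where 73.1% of all genes tested were called, 16.6% as higher and 56.5% as lower. Counts for the map are on TPM as deposited alone. Without the 10 genes the median over the other 126 was -0.17, where that of all genes tested was -0.47. In QJHTD against Model no gene passed in any of these 6 lists or on the map, and among the genes with the smallest p in each list were Bcl2a1a at -0.33 (adjusted p = 0.685), which had the only unadjusted p under 0.05 among the other BCL2 family genes, Casp2 at 0.33 (adjusted p = 0.748), Fas at -0.31 (adjusted p = 0.726) and Bbc3 at 0.26 (adjusted p = 0.740).

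**Figure D5:**
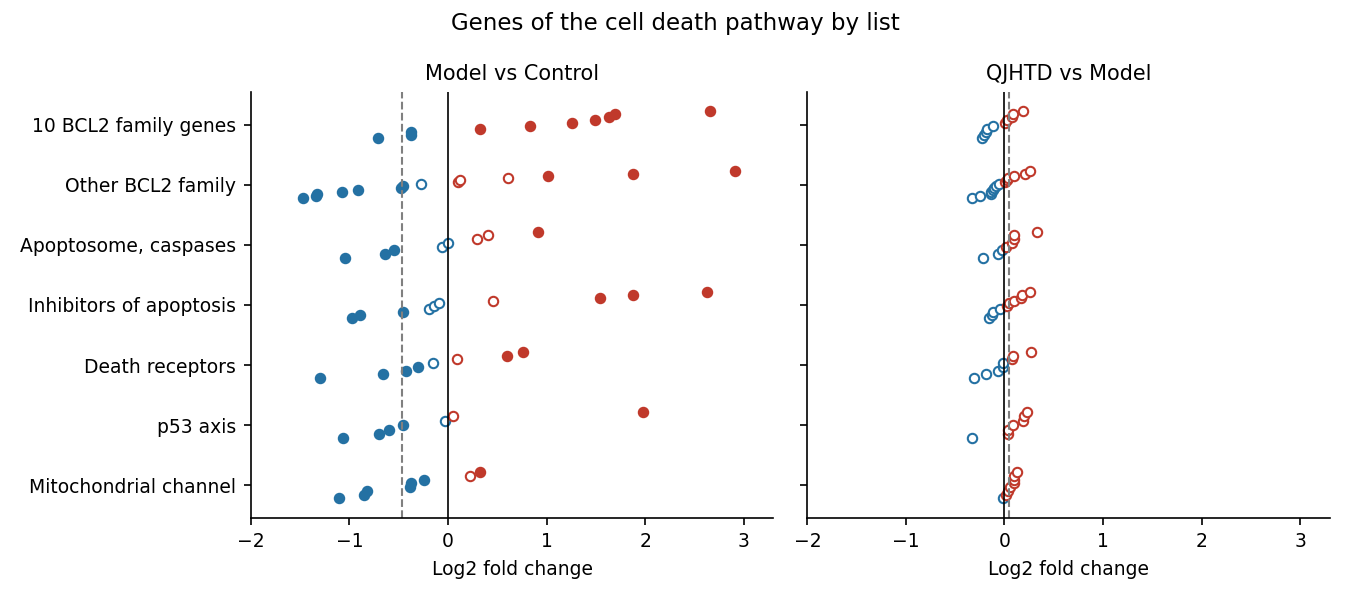
Log2 fold change of each tested gene in 7 lists of the cell death pathway, in Model against Control and in QJHTD against Model, where filled points passed an adjusted p of 0.05 by limma, red is above and blue below 0, and the dashed line is the median of all genes tested. In the first panel the 10 genes spread from -0.71 to 2.66 and the other BCL2 family genes from -1.47 to 2.91, and in the second no point is filled.

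The libraries carried the markers of lung, with Sftpc of alveolar type 2 cells at 11426 to 32475 TPM and Scgb1a1 of club cells at 11802 to 237953 TPM. Between Model and Control, all 12 neutrophil markers rose (summed level 246 to 923 TPM in Control, 7447 to 14312 in Model, 5091 to 8722 in QJHTD), with S100a9 and S100a8 the most abundant. Of 12 monocyte and macrophage markers 10 rose (3734 to 5197, 9425 to 10850 and 9168 to 10468 TPM), led by Lyz2 and Ly6c2. All 9 plasma cell markers rose (336 to 500, 9770 to 11685 and 10128 to 13038 TPM), led by Jchain and Mzb1. Of B cell markers 5 of 8 rose, Cd79a and Cd79b among them, and of T cell markers 5 of 8, where the most abundant were Cd3g (14.6 to 18.8 TPM in Control, 17.6 to 23.3 in Model) and Lck. None of these markers was called as lower. The lowest estimates were -0.59 in the B cell list, -0.11 in the T cell list and -0.02 in the monocyte and macrophage list.

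Markers of most resident cells fell. All 9 endothelial markers fell (1188 to 1360 TPM in Control, 215 to 219 in Model, 246 to 293 in QJHTD), with Cldn5 and Pecam1 the most abundant. Of alveolar type 1 markers 6 of 7 fell, led by Ager and Hopx (2919 to 3862, 903 to 1049 and 949 to 1192 TPM), and in the other scalings 6 fell and 0 to 1 rose. Of alveolar type 2 markers 2 of 7 fell and 1 rose, against 1 to 3 falls and 2 to 5 rises in the other scalings. All 6 club cell markers fell (221946 to 249742, 12263 to 33818 and 14368 to 21560 TPM), as did all 6 ciliated cell markers, led by Tppp3 and Dynlrb2 (763 to 992, 118 to 351 and 132 to 221 TPM). The falls of ciliated cell markers numbered 3 to 6 in the other scalings, with 4 after median-ratio rescaling and 3 without segment, hemoglobin and mitochondrial genes. Heart muscle genes such as Myl7 and Nppa were uneven between libraries of a group (507 to 1741, 22.5 to 140 and 18.0 to 345 TPM) and 6 of 7 fell. No marker in these 11 lists was called in QJHTD against Model, the comparison in which Mcl1, Bcl2a1b and Pmaip1 lay lower. There the 12 neutrophil markers were all at differences below 0 (-0.90 to -0.24, median -0.67, 4 with an unadjusted p under 0.05) and the 9 endothelial markers all above 0 (0.20 to 0.36, median 0.29, 5 with an unadjusted p under 0.05). Other lists were as uniform. T cell markers (0.10 to 0.54, 4 with an unadjusted p under 0.05) and alveolar type 1 markers (0.08 to 0.26) were all above 0. Ciliated cell markers (-0.47 to -0.22) were all below 0. The part of these shifts in the levels of the 10 genes was not tested. M2 and Q1 were the lowest exposed libraries in club cell, ciliated cell and heart muscle markers, and without both of them 10 of the 10 genes were called in Model against Control and 0 of 10 in QJHTD against Model, while 7 were called in QJHTD against Control, where Bcl2 and Bax lost their calls.

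The genes most like each of the 10 over the 9 libraries, by Pearson's r of log2(TPM + 1), are given as a description. The points fall into exposed and unexposed libraries, so that any gene with a wide gap between these gives a high r. Bcl2a1b was closest to Syk and Sema4d (0.998 each), and Bcl2a1d to Themis2 and Rhof (0.994 each). Syk, a kinase of immune receptors, was at 9.71 TPM on average in Control and 51.8 TPM in Model. Bak1 was closest to Capg and Grn (0.995 each), Bid to Txndc11 and Cdt1 (0.996 each), Bcl2l11 to Mapk6 (0.995) and Abca1 (0.993) and Pmaip1 to Gtsf2 (0.993) and Gpr132 (0.988). Each of these 6 genes had between 854 and 1368 genes with an r over 0.9. Of the falling genes, Bcl2 was closest to Slc25a40 (0.985) and Zfp653 (0.984), Bcl2l1 to Zfp703 and Anxa3 (0.983 each) and Bax to Fam160a2 (0.980) and Vps51 (0.973). Mcl1, with its small range, had 7 genes over 0.9, and the closest were Kctd12 (0.961) and Atg5 (0.934), a gene of autophagy.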

How the data were processed

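RNA of 9 mouse lung libraries was used, 3 each of Control, Model and QJHTD. Per the labels, libraries were made with a SMARTER mRNA-Seq kit, and the submitters' processing notes name fastp for trimming and RSEM for quantification, with versions and strandedness not given in the sources used here. A human build, GRCh38.p6, is named there, while 55486 of the identifiers are of mouse genes and 777 are assembled loci. Coordinates are from GENCODE M21 (GRCm38), which matched all 10 genes. The authors deposited TPM per gene and library, and their 3 columns of group means, equal to the means of the libraries, were not used. TPM keep no read counts, so depth is unknown and precision was judged from the spread between libraries.

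The 16080 genes that reached 1 TPM in 3 or more libraries were tested on the log2 scale, after 1 TPM was added to each value. A single limma model (version 3.58.1, R 4.3.3) covered the 3 groups, with a trend of the variance on mean level, 6 residual and 2.88 prior degrees of freedom. Benjamini-Hochberg adjustment was made per comparison over these genes, and each adjusted p in the text is from limma. The paper names no test for the RNA-seq. The procedure was tested on simulated data with changes planted in a small part of the genes. Those data held no shift in library composition, so that test does not cover the composition of these libraries. The 10 genes, the gene lists and the tests were chosen with earlier results of these data known. Named were the 10 genes and the Bcl2a1 copies, per pathway list the 4 genes with the smallest p in Model against Control and the 2 in QJHTD against Model, per cell list the 2 most abundant markers, and per gene the 2 most alike over the 9 libraries, without predicted genes, assembled loci and segments; other genes named beside them (Bmf, Bik, Bok, overlapping genes) were chosen after their values were seen. One gene that the rule names is not reported here. Figures were drawn with matplotlib 3.10.9.

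The scaling alternatives were median-ratio rescaling, TPM without segment, hemoglobin and mitochondrial genes, and quantile normalization. Others were to add 0.1 in place of 1 TPM, to test all genes or those with mean TPM of 5 or more, to fit each pair of groups alone, to drop the variance trend, to add a replicate block, to sum the Bcl2a1 copies, to leave out each library in turn, and to use the thresholds of the study (unadjusted p under 0.05, log2 fold change of 1 or more in size). Chosen after seeing the data were leaving out M2 and Q1, and the removal of Scgb1a1 as well.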

Additional observations from a re-analysis of the deposited data

How the results depend on the processing

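Depth is unknown and each group has 3 libraries, which limits the precision most for Bcl2, the lowest of the 10 genes on average over the 9 libraries, which a mean of at least 5 TPM left out. The 7 rises in Model against Control kept their direction in each alternative and, at an adjusted p under 0.05, their call in each except Mcl1 without C3 and without M3, while Pmaip1 and Mcl1 did not pass the thresholds of the study. Of the 10 genes together, 194 of 207 values kept direction and call, 9 lost the call and 4 turned. The 4 that turned were Bcl2l1 (0.16 and 0.26) and Bax (0.17 and 0.27) after median-ratio rescaling and without segment, hemoglobin and mitochondrial genes. In QJHTD against Control, 186 of 207 were the same, 15 lost the call, 3 gained it and 3 turned, namely Bax (0.16 and 0.31 in the same 2 scalings) and Bcl2l1 (0.09 without segment, hemoglobin and mitochondrial genes). In QJHTD against Model, 10 of 207 turned around 0, none of them called, namely Bax (-0.02 after median-ratio rescaling), Bid (-0.03 after median-ratio rescaling and after quantile normalization, -0.01 without M2 and Q1), and single libraries left out. With 1 library left out, Bax ranged from -0.06 to 0.14, Bak1 from -0.01 to 0.18, Bid from -0.04 to 0.09 and Bcl2l11 from -0.22 to 0.01. The cause was not tested.

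With the thresholds of the study (unadjusted p under 0.05, log2 fold change of 1 or more in size), 5 of the 10 genes passed in Model against Control and 5 in QJHTD against Control, where 31.4% and 30% of all genes passed, and this follows from the added minimum of the fold. Leaving out 1 library gave 9 to 10 of the 10 genes called in Model against Control, 7 to 9 in QJHTD against Control and 0 in QJHTD against Model each time. The 2 genes called over all genes in QJHTD against Model became 0 with a pseudocount of 0.1, with a mean of at least 5 TPM and without M2 and Q1, 4 with no filter, 1 after median-ratio rescaling, 1 after quantile normalization, and 0 to 4 with 1 library left out. Same-numbered libraries did not deviate together (correlations of -0.103 to 0.089 over 9 pairs against -0.151 to 0.144 for 18 pairs of different number). No pairing by number was seen, but so few libraries per group cannot exclude one. With the replicate number as a block, 11465 genes were called in Model against Control, 1 in QJHTD against Model and 11012 in QJHTD against Control, and the calls of the 10 genes were the same.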
